A study of Mus musculus with 12 samples.

Results

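The genes described here are the small nucleolar RNA (snoRNA) genes measured in hematopoietic stem and progenitor cells (HSPCs) of mouse bone marrow. They were taken by name: every listed gene whose symbol starts with Snord (C/D box class) or Snora (H/ACA box class). This gave 110 of the 20792 genes listed, 71 C/D and 39 H/ACA, under 109 symbols because Snora43 was listed under 2 gene IDs. All 110 were annotated as snoRNA in GENCODE M21, and each had at least 1 read in all 12 libraries.

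RNA was sequenced from HSPCs sorted as Lin-CD127-c-kit+Sca-1+ from femur and tibia of male wild-type mice, in 4 groups of 3 libraries each. HSD mice received chow with high NaCl and salted drinking water for 8 weeks, and HSD ICHD7 mice received the same diet followed by intracerebral hemorrhage (ICH), modelled by injecting the animal's own blood into the brain, with cells taken on day 7. ND mice received normal chow for 8 weeks, and ND ICHD7 mice received normal chow followed by the same injection and sampling. All animals were returned to normal chow after ICH, so HSD ICHD7 cells came from mice no longer on salt. Each HSD and ND library was a pool of 3 animals; pooling was not given for the ICHD7 libraries, and no group was a genetic model. The libraries were made from total RNA, and values are CPM, the reads of a gene scaled to a common library size. Differences between libraries are those of sorted populations, in which fewer cells carrying an RNA and less of it per cell cannot be told apart.

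The snoRNAs are short nuclear RNAs, most of them cut out of introns of host genes that are often themselves needed for making ribosomes. The C/D class carries a C box and a D box and, with the methyltransferase fibrillarin, guides 2′-O-methylation of ribosomal RNA. The H/ACA class folds into hairpins separated by an H box, ends in an ACA, and with dyskerin guides conversion of uridine to pseudouridine. A few members of either class are needed for cutting the ribosomal RNA precursor rather than for modifying it. HSPCs are known to be sensitive to defects in ribosome production, and inherited dyskerin defects cause bone marrow failure in humans.

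Annotated lengths separated the classes almost completely: C/D genes were 64 to 238 nt long with a median of 80 nt, and H/ACA genes were 121 to 205 nt long with a median of 133 nt. Only 9 C/D genes were 100 nt or longer. Of the 71 C/D genes, 68 lay inside a host gene on the same strand (50 of them in protein-coding genes, 19 in ribosomal protein genes), and 35 of the 68 overlapped an exon of some host transcript. Of the 39 H/ACA genes, 35 lay inside a host, 11 of them in ribosomal protein genes and 20 of them overlapping an exon of some transcript. The strand setting of the counting was not stated. For those 35 and 20 genes, reads of the host could have been counted in part.

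Annotated sequences of the members on which the results turn are printed to show the 2 kinds of box, from the GENCODE M21 transcripts (GRCm38), 5′ to 3′ in DNA letters. In the C/D genes, the capitals mark the first ATGATGA or GTGATGA that begins within the first 25 nt and the last CTGA within the last 25 nt. Snord15a (chr7:99482785-99482932, minus strand, intron of Rps3) and Snord15b (chr7:99479563-99479707, minus strand, in Rps3) guide methylation of the large-subunit rRNA in humans; they had the highest levels of all members. Snord17 (chr2:144265979-144266216, minus strand, intron of Snx5) was the longest, and Snord80 (chr1:161037601-161037681, plus strand, in Gas5) stands for the short members.
Snord15a: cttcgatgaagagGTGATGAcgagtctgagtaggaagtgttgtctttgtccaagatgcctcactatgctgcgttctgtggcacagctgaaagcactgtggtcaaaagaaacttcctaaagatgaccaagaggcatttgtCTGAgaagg
Snord15b: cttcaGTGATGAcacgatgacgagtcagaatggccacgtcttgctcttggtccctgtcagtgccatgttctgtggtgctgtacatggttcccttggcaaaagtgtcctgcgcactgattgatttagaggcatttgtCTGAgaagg
Snord17: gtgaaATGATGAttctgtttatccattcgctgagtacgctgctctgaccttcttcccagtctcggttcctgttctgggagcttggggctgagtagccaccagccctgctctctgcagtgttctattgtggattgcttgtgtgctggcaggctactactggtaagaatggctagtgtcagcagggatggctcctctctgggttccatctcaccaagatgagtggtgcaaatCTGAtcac
Snord80: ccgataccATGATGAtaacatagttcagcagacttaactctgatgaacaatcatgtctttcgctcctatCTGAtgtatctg

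In the H/ACA genes, the capitals mark the ANANNA nearest the middle, at least 40 nt from either end, and the last ACA within the last 10 nt. Snora21 (chr11:97781639-97781775, minus strand, intron of Rpl23) and Snora64 (chr17:24720772-24720905, plus strand, in Rps2) guide pseudouridylation of large-subunit rRNA in humans. Snora16a (chr4:132309465-132309600, plus strand, in Snhg12) and Snora15 (chr5:129794546-129794676, plus strand, in Cct6a) were lower at unadjusted p in both diet comparisons.
Snora21: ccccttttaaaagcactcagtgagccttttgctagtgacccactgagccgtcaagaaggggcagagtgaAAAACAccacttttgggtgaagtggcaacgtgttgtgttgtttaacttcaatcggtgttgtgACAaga
Snora64: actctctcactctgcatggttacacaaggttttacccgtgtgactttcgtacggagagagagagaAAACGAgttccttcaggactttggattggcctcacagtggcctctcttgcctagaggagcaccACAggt
Snora16a: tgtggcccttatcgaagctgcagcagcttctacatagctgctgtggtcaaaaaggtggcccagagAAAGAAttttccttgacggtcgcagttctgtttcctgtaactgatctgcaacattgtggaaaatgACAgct
Snora15: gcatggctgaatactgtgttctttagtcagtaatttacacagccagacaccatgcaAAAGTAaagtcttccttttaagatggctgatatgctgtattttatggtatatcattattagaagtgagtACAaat

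The boxes were searched on the transcript strand, and the searched motifs do not overlap. The C box letters were found in 45 and the CTGA in 70 of the 71 C/D genes, against 0.145% and 8.46% of 1383 small nuclear RNA (snRNA) transcripts of the annotation searched in the same windows. The ACA was found in 37 of the 39 H/ACA genes, against 7.59% of the snRNA transcripts. The ANANNA was found in 37 of the 39 but also in 73.4% of the snRNA transcripts, so it says little by itself. Snord15a and Snord15b were only 66.0% identical and shared no stretch of 31 nt. Snora73a and Snora73b (96.6% identical) and Snord14c and Snord14d (97.7%) shared such stretches, so reads could have been split or lost between the copies, and their single values are uncertain. The 2 Snora43 entries overlap on chromosome 2 and are uncertain for the same reason.

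Levels were concentrated in a few genes. Per kilobase of annotated length, the mean in ND was 2803 CPM for Snord15b, 1480 CPM for Snord15a, 954 CPM for Snora21, 705 CPM for Snord17 and 553 CPM for Snora64. The 5 C/D genes with the highest mean CPM (Snord15b, Snord15a, Snord17, Snord22 and Snord118) held 80.0% of the C/D total, and the 5 highest H/ACA genes (Snora21, Snora74a, Snora73a, Snora81 and Snora64) held 53.0% of the H/ACA total. The other C/D genes were low: 45 of 71 averaged under 2 CPM over the 12 libraries, against 10 of 39 H/ACA genes.

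Library depth was 8678304 to 15469971 reads in HSD, 13874826 to 14594254 in ND, 12286357 to 27491973 in HSD ICHD7 and 12367859 to 15058511 in ND ICHD7. The HSPC markers Kit (329 to 487 CPM) and Cd34 (215 to 392 CPM) were high in all libraries, whereas Ly6a, which encodes the sort marker Sca-1, had 2.42 to 6.72 CPM. The sum of 15 macrophage genes was 111 to 933 CPM in HSD and 136 to 520 CPM in ND, highest in HSD replicate 2 and ND replicate 1, and 81.8 to 199 CPM in the ICHD7 groups; Marco was at 0 in 2 HSD libraries. Marker levels also differed between groups. The sum of 15 other-lineage genes, mostly the granulocyte-precursor gene Mpo, was 4808, 3915 and 12422 CPM in HSD ICHD7, against 3428, 2875 and 2206 CPM in ND ICHD7 and 1288 to 2326 CPM in the 6 libraries without ICH. The sum of 12 HSPC markers was 1751, 1707 and 1228 CPM in HSD ICHD7, against 1848, 1789 and 1782 CPM in ND ICHD7 and 1867 to 2045 CPM in the libraries without ICH. Neither sum overlapped between HSD ICHD7 and any other group, as was the case for the snoRNA sums, and HSD ICHD7 replicate 3, also the deepest library, was the most extreme in both. Only 59 listed genes were at 0 in any ICHD7 library, but 2460 were at 0 in at least 1 library without ICH, so zeros were far rarer with ICH than without. The part of these differences in the snoRNA values was not tested beyond the values given without single libraries.

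Summed over the class, both kinds of snoRNA were lower in HSD than in ND HSPCs. The 71 C/D genes summed to 698, 733 and 767 CPM in the 3 HSD libraries, against 962, 1072 and 944 CPM in the 3 ND libraries, and the mean was 26.2% lower. The 39 H/ACA genes summed to 495, 422 and 547 CPM in HSD, against 634, 707 and 668 CPM in ND, 27.1% lower. No HSD library reached the lowest ND library in either class. After ICH the C/D sum was 333, 369 and 324 CPM in HSD ICHD7, against 640.2, 794 and 502 CPM in ND ICHD7, 47.0% lower. The H/ACA sum was 323, 267 and 275 CPM in HSD ICHD7, against 484, 509 and 452 CPM in ND ICHD7, 40.1% lower. These groups did not overlap either.

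The difference in the C/D sum lay in its few long members, which included the 5 C/D genes with the highest mean CPM. Length and level were therefore not separated here. The 9 C/D genes of 100 nt or more summed to 590.1 ± 33.0 CPM in HSD and 858 ± 72.6 CPM in ND (SD, n = 3 each), and to 222 ± 13.0 CPM in HSD ICHD7 and 514 ± 139 CPM in ND ICHD7. The 62 shorter C/D genes summed to 142 ± 6.11 CPM in HSD and 135 ± 5.98 CPM in ND, and to 119.9 ± 15.9 CPM in HSD ICHD7 and 131 ± 6.63 CPM in ND ICHD7, differences within about the spread between libraries. The H/ACA sum was lower among both high and low members, and more so among the high ones. The 9 genes averaging 10 CPM or more summed to 371 ± 54.1 CPM in HSD and 529 ± 33.4 CPM in ND, 29.9% lower. They summed to 203 ± 31.8 CPM in HSD ICHD7 and 366 ± 15.9 CPM in ND ICHD7, 44.4% lower. The 30 genes averaging under 10 CPM summed to 117 ± 9.21 CPM in HSD and 140.5 ± 3.96 CPM in ND, 16.4% lower. After ICH these 30 summed to 84.9 ± 4.90 CPM in HSD ICHD7 and 116 ± 12.7 CPM in ND ICHD7, 26.6% lower. The splits at 100 nt and 10 CPM were chosen after the values were seen and were given no test.

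**Figure D1:**
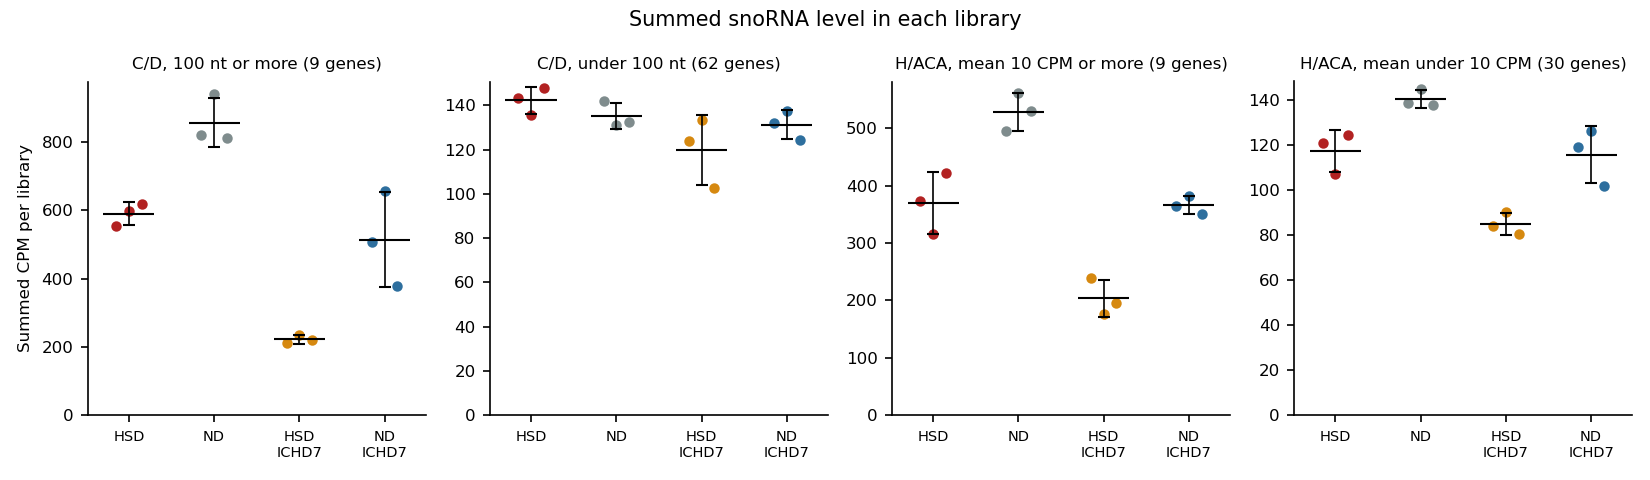
Summed CPM of the snoRNA genes in each library, for C/D genes of 100 nt or more, C/D genes under 100 nt, H/ACA genes averaging 10 CPM or more and H/ACA genes averaging under 10 CPM. Points are libraries, the wide line is the group mean and the bars are 1 SD (n = 3); the short C/D genes overlap between diets, whereas in the other 3 panels HSD lies below ND and HSD ICHD7 below ND ICHD7.

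The first comparison, HSD against ND without ICH, asks what 8 weeks of the diet did to the RNAs of HSPCs. Among C/D genes, Snord15a was lower in HSD past the adjusted threshold, 6 others were lower at unadjusted p, and none was higher. Snord15a had 93.2, 118 and 123 CPM in HSD, against 222, 244 and 191 CPM in ND, so that every HSD library lay below every ND library. Its log2 fold change was -0.98 ± 0.11 (SE; limma, adjusted p = 0.00625 over 16536 genes). It was the only C/D gene past that threshold, which 0.0605% of all genes passed lower and 0.0121% higher. DESeq2 called 3 C/D genes (Snord15a, Snord15b and Snord22) and 4 H/ACA genes (Snora15, Snora64, Snora73a and Snora73b) lower at adjusted p, among 64 of all genes, and edgeR called 1 C/D and 0 H/ACA genes, among 10.

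The neighbouring Snord15b had 292, 297 and 303 CPM in HSD, against 369, 460.0 and 391 CPM in ND (log2 fold change -0.44 ± 0.09, limma adjusted p = 0.129). Snord17 had 129, 149 and 143 CPM in HSD, against 167, 169 and 167 CPM in ND (-0.26 ± 0.07, limma adjusted p = 0.459). The ND libraries of Snord17 were nearly equal, and the HSD libraries were all lower. Snord22, a snoRNA needed for small-subunit rRNA processing in frog oocytes, had 28.6, 19.1 and 33.2 CPM in HSD, against 42.0, 49.2 and 44.4 CPM in ND (-0.77 ± 0.16, limma adjusted p = 0.203). Snord118, the U8 snoRNA of large-subunit rRNA processing, had 8.74, 9.55 and 12.4 CPM in HSD, against 16.9, 15.4 and 12.9 CPM in ND (-0.55 ± 0.16, limma adjusted p = 0.443). In all 4 of these genes the groups did not overlap.

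The other 2 C/D genes lower at unadjusted p were copies of Snord14, which is needed for small-subunit rRNA processing in yeast; they lie in Hspa8 and overlap an exon of some of its transcripts. Snord14d had 2.59, 1.11 and 1.06 CPM in HSD, against 2.87, 3.42 and 4.44 CPM in ND (log2 fold change -1.03 ± 0.29), and Snord14c had 1.21, 0.603 and 1.48 CPM in HSD, against 1.68, 3.09 and 2.67 CPM in ND (-0.91 ± 0.29). The third copy, Snord14e, had 1.87, 0.804 and 4.01 CPM in HSD, against 2.59, 4.01 and 4.89 CPM in ND, and its groups overlapped. Their host Hspa8, a heat shock protein gene, had a log2 fold change of 0.05 ± 0.11.

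In all, 7 of the 57 C/D genes tested were lower at unadjusted p under 0.05, where 3.25% of all genes were, and 0 were higher, where 3.68% of all genes were. The 7 included 5 of the 8 tested genes of 100 nt or more and 2 of the 49 shorter ones. Those 5 long genes were also the 5 C/D genes with the highest mean CPM. The median log2 fold change was 0.06 over the C/D genes tested, against 0.02 over all genes. Thus 50 of the 57 did not pass; 28 had a lower and 29 a higher mean in HSD, where 45.1% of all genes had a lower mean. The groups did not overlap in 7 genes lower and 1 higher in HSD, where 5.64% of all genes were lower and 7.16% higher without overlap. Snord80 and Snord78, among the highest of the short genes, had log2 fold changes of 0.09 ± 0.13 and 0.08 ± 0.19. The median SE was 0.26 for the short genes and 0.16 for the long ones. Without HSD replicate 3, 11 of 57 C/D genes passed, 9 lower and 2 higher. Of all genes, 1321 of 16690 then passed in either direction, against 1145 of 16536 with all libraries.

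More of the H/ACA than of the C/D genes tested were lower, but the classes also differed in level. The median over genes was 4.63 CPM for H/ACA and 1.38 CPM for C/D. With the study's filter of 10 CPM in 3 samples, 9 of 11 H/ACA and 5 of 6 C/D genes were lower at unadjusted p. Of all 10084 genes then tested, 781 passed in either direction. The part of level in the class difference was not tested. In the main test, 14 of the 37 H/ACA genes were lower at unadjusted p, where 3.25% of all genes were. None was higher, and the median log2 fold change was -0.34. The groups did not overlap in 12 genes lower and 3 higher in HSD, where 5.64% of all genes were lower and 7.16% higher. A lower mean was found in 29 of the 37, as in 45.1% of all genes. Snora73a, the U17 snoRNA needed for small-subunit rRNA processing, had 34.1, 36.2 and 35.1 CPM in HSD, against 48.3, 51.8 and 50.5 CPM in ND. Its log2 fold change was -0.51 ± 0.08 (limma adjusted p = 0.0493), the only H/ACA gene past that threshold, and its near copy Snora73b had 38.1, 29.6 and 35.1 CPM in HSD, against 50.0, 45.0 and 50.3 CPM in ND (-0.50 ± 0.10). Both lie in introns of Rcc1, whose log2 fold change was 0.15 ± 0.12.

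Snora64 had 52.2, 31.5 and 42.4 CPM in HSD, against 67.4, 81.8 and 73.0 CPM in ND (log2 fold change -0.84 ± 0.15, limma adjusted p = 0.0825). Snora21 had 81.8, 55.0 and 103 CPM in HSD, against 118, 145 and 129 CPM in ND (-0.75 ± 0.17, limma adjusted p = 0.272). Snora23, which guides pseudouridylation of large-subunit rRNA in humans, had 37.3, 38.3 and 39.0 CPM in HSD, against 48.8, 48.8 and 49.6 CPM in ND (-0.36 ± 0.08, limma adjusted p = 0.216). In these 3 genes every HSD library was below every ND library, most evenly in Snora23. Snora15 had 8.26, 4.52 and 11.8 CPM in HSD, against 12.7, 15.7 and 17.3 CPM in ND (-0.94 ± 0.26).

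Snora81 had 36.1, 22.0 and 54.5 CPM in HSD, against 49.1, 61.5 and 57.3 CPM in ND, and its groups overlapped (-0.66 ± 0.24). The 4 H/ACA genes without an annotated host, Snora17, Snora57 and both Snora43 entries, had log2 fold changes of 0.01 to 0.31, and none passed at unadjusted p. The adjusted call of Snora73a was lost without ND replicate 1, 2 or 3 and without HSD replicate 1 or 3 (adjusted p 0.000355 to 0.882 over all its alternatives, edgeR 0.0619, DESeq2 0.000355). The call of Snord15a was lost only when the spread was shared over all 12 libraries (limma adjusted p = 0.824). Without the 2 libraries with high macrophage genes, 7 of 58 C/D and 14 of 37 H/ACA genes were lower at unadjusted p. In the same fit 3 C/D and 0 H/ACA genes were higher. Of all 16646 genes in that fit, 1829 had unadjusted p under 0.05 in either direction, against 1145 of 16536 with all libraries. At adjusted p, 3 of each class were then lower, where 68 of all genes were lower and 32 higher, against 10 and 2 with all libraries.

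**Figure D2:**
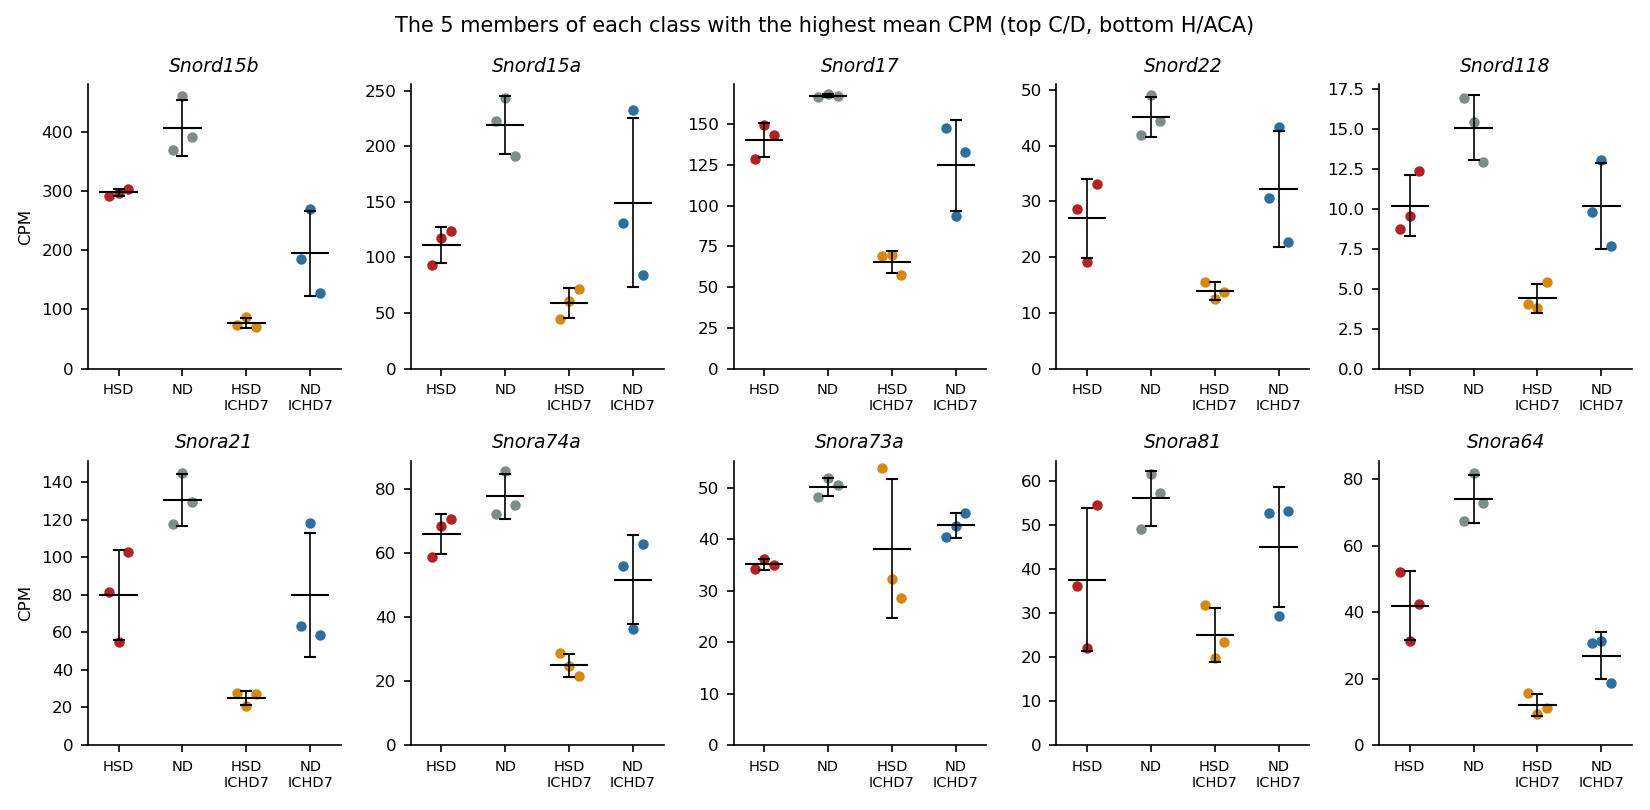
CPM in each library of the 5 C/D genes (top) and the 5 H/ACA genes (bottom) with the highest mean CPM. Points are libraries, the wide line is the group mean and the bars are 1 SD (n = 3); HSD libraries lie below ND libraries in all but Snora81, and HSD ICHD7 libraries below ND ICHD7 libraries in all but Snora73a and Snora81.

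The second comparison, HSD ICHD7 against ND ICHD7, uses 6 other libraries and asks whether the diet groups still differed after ICH and return to normal chow. The 5 highest C/D genes were lower here too. Snord15b had 73.5, 86.3 and 70.8 CPM in HSD ICHD7, against 185, 269.6 and 128 CPM in ND ICHD7 (log2 fold change -1.27 ± 0.23). Snord15a had 44.8, 60.5 and 71.1 CPM in HSD ICHD7, against 131, 233 and 83.7 CPM in ND ICHD7 (-1.24 ± 0.32). The 3 ND ICHD7 libraries were widely spread in both, with replicate 2 highest. Snord17 had 69.3, 69.5 and 57.5 CPM in HSD ICHD7, against 148, 93.7 and 133 CPM in ND ICHD7 (-0.91 ± 0.17), and here replicate 2 was the lowest of ND ICHD7.

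Snord22 had 15.6, 12.4 and 13.8 CPM in HSD ICHD7, against 30.6, 43.3 and 22.8 CPM in ND ICHD7 (log2 fold change -1.14 ± 0.21). Snord118 had 4.03, 3.77 and 5.45 CPM in HSD ICHD7, against 9.79, 13.1 and 7.71 CPM in ND ICHD7 (-1.11 ± 0.22). None of the 5 genes overlapped between HSD ICHD7 and ND ICHD7, but none passed the adjusted threshold (limma adjusted p 0.231 to 0.253). The sixth gene lower at unadjusted p was the short Snord65, at 1.30, 1.70 and 1.19 CPM in HSD ICHD7, against 2.30, 2.75 and 2.28 CPM in ND ICHD7. These 6 were of 61 tested, where 9.84% of all genes were lower, so the C/D count was at the background; 0 were higher, where 5.52% of all genes were. The median log2 fold change was -0.16, against -0.03 over all genes, and 48 of the 61 had a lower mean, as did 53.4% of all genes. The groups did not overlap in 11 genes lower and 0 higher in HSD ICHD7, where 13% of all genes were lower and 10.2% higher without overlap. The Snord14 copies did not pass here: Snord14d had a log2 fold change of -0.47 ± 0.22, Snord14e of -0.11 ± 0.23 and Snord14c of -0.02 ± 0.29.

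Among H/ACA genes, 14 of 38 were lower at unadjusted p, where 9.84% of all genes were, and 0 were higher. The median log2 fold change was -0.38, and 33 of the 38 had a lower mean, as did 53.4% of all genes. With no overlap 16 were lower, where 13% of all genes were. Snora21 had 27.6, 20.8 and 26.9 CPM in HSD ICHD7, against 63.2, 118 and 58.5 CPM in ND ICHD7 (-1.59 ± 0.25, limma adjusted p = 0.219). Snora15 had 2.39, 2.44 and 3.29 CPM in HSD ICHD7, against 7.43, 10.6 and 7.05 CPM in ND ICHD7 (-1.45 ± 0.21). Snora16a had 5.05, 4.44 and 5.27 CPM in HSD ICHD7, against 12.9, 19.8 and 10.5 CPM in ND ICHD7 (-1.41 ± 0.22). In these 3 genes the highest HSD ICHD7 library had less than the lowest ND ICHD7 library.

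Snora64 had 15.7, 9.31 and 11.1 CPM in HSD ICHD7, against 30.8, 31.4 and 18.6 CPM in ND ICHD7 (log2 fold change -1.13 ± 0.24). Snora74a, the U19 snoRNA, had 28.6, 24.5 and 21.6 CPM in HSD ICHD7, against 56.1, 36.1 and 62.8 CPM in ND ICHD7 (-1.01 ± 0.20). Snora23 had 23.2, 17.1 and 25.9 CPM in HSD ICHD7, against 39.0, 45.1 and 38.0 CPM in ND ICHD7 (-0.88 ± 0.16). Snora73a was an exception: HSD ICHD7 replicate 1 had 53.7 CPM and the others 32.2 and 28.6 CPM, against 40.4, 42.6 and 45.1 CPM in ND ICHD7 (-0.21 ± 0.21).

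No snoRNA gene, and none of all 19718 genes tested, passed limma's adjusted threshold in this comparison, although 3028 genes had unadjusted p under 0.05. edgeR also called 0 genes, DESeq2 called 107 genes (5 C/D and 6 H/ACA) and limma over all 12 libraries called 249 (5 C/D and 6 H/ACA), all of those snoRNAs lower. Of the 12 HSPC markers, 3 were lower at unadjusted p in this comparison, where 9.84% of all genes were. With no overlap 5 were lower, where 13% of all genes were. Without HSD ICHD7 replicate 3, 6 of 61 C/D and 13 of 36 H/ACA genes were lower at unadjusted p. Of all genes, 1951 of 19574 then passed in either direction, against 3028 of 19718 with all libraries. The part of the other-lineage and HSPC marker levels in these snoRNA values was not tested further.

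**Figure D3:**
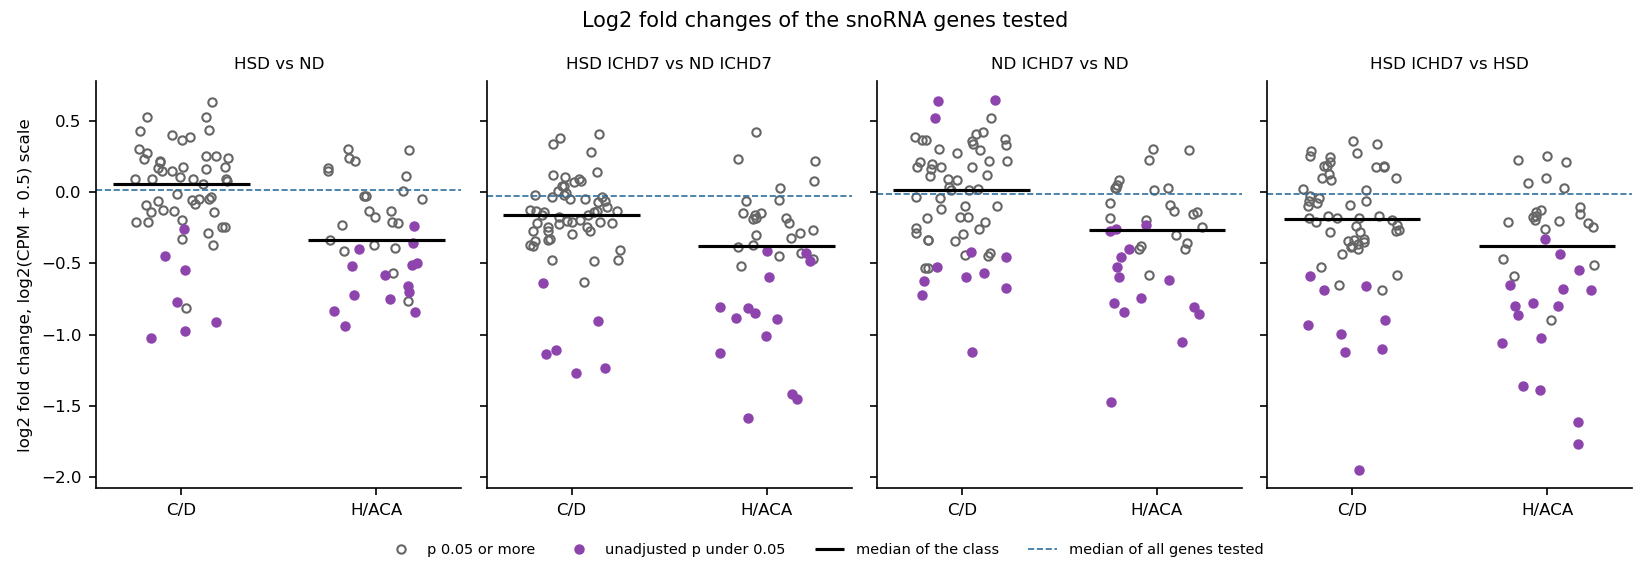
Log2 fold changes on the log2(CPM + 0.5) scale of each snoRNA gene tested, by class, in the 4 comparisons. Filled points had unadjusted p under 0.05 by limma, black lines are class medians and dashed lines the median of all genes; nearly all filled points lie below 0, the exceptions being 3 C/D genes in ND ICHD7 against ND.

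Since these diet comparisons share no library, the genes lower at unadjusted p in both could be counted. Of 55 C/D genes tested in both, 5 were lower in both, 71.4% of the 7 lower without ICH and 83.3% of the 6 lower after ICH: Snord118, Snord15a, Snord15b, Snord17 and Snord22. Of 37 H/ACA genes, 8 were lower in both, 57.1% of the 14 in either comparison: Snora15, Snora16a, Snora21, Snora23, Snora64, Snora73b, Snora74a and Snora81. Among all 16463 genes tested in both, 153 were lower in both, 28.7% of the 533 and 14.8% of the 1035.

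The change of the diet effect after ICH was tested itself, over all 12 libraries, as the difference of the 2 log2 fold changes. It was below 0 at unadjusted p for 2 of 60 C/D genes and 7 of 38 H/ACA genes, where 4.05% of all genes were, and above 0 for 0, where 2.40% were. The C/D genes were Snord17 (-0.65 ± 0.20) and Snord15b (-0.83 ± 0.27). The H/ACA genes included Snora74a (-0.77 ± 0.24), Snora21 (-0.84 ± 0.35), Snora68 (-0.72 ± 0.22) and Snora17 (-0.69 ± 0.26). Snora68 had 8.56, 7.54 and 7.50 CPM in HSD, against 6.16, 6.77 and 6.03 CPM in ND, but 4.37, 5.25 and 4.48 CPM in HSD ICHD7, against 6.57, 7.46 and 5.51 CPM in ND ICHD7, so it lay on opposite sides in the 2 settings. None of these passed after adjustment (limma adjusted p = 0.737 for each), nor did any of the 17880 genes (1153 at unadjusted p; edgeR and DESeq2 0 after adjustment). When single libraries were left out, the C/D count in both directions together was 2 to 6, with 2 to 5 genes below 0 and 0 to 2 above. It was 5 without ND replicate 1, without HSD replicate 1, 2 or 3 and without ND ICHD7 replicate 3. It was 6 without HSD ICHD7 replicate 2 and 4 without HSD ICHD7 replicate 3. Over all genes, 748 to 1786 had unadjusted p under 0.05 when single libraries were left out.

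**Figure D4:**
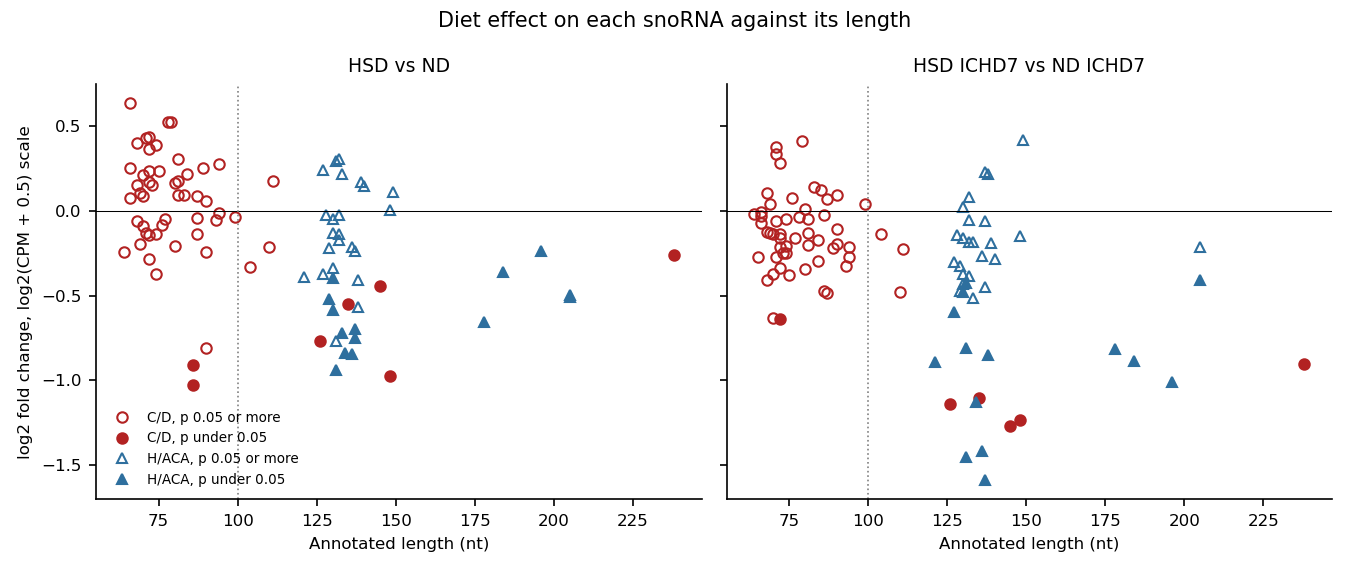
Log2 fold change for the diet on the log2(CPM + 0.5) scale, HSD against ND (left) and HSD ICHD7 against ND ICHD7 (right), plotted against annotated length in nt for each snoRNA gene tested. Circles are C/D and triangles H/ACA genes, filled where unadjusted p was under 0.05, and the dotted line marks 100 nt. Most filled points lie to its right, as do all H/ACA genes by their length and the 5 highest C/D genes. The Spearman correlation of length with log2 fold change was -0.10 (left) and 0.04 (right) over H/ACA genes. Over C/D genes it was -0.39 and -0.32.

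ND ICHD7 against ND and HSD ICHD7 against HSD compare mice with and without ICH within each group of starting diet. Because HSD ICHD7 mice were back on normal chow for the 7 days after ICH while HSD mice were not, ICH and the end of the salt diet cannot be told apart in HSD ICHD7 against HSD. Both comparisons share their libraries with the diet comparisons, and whether libraries with and without ICH were made together was not given, so ICH and such a difference cannot be told apart. In HSD ICHD7 against HSD, 5 C/D genes were lower past limma's adjusted threshold: Snord15b (log2 fold change -1.95 ± 0.10, adjusted p = 5.52e-05), Snord17 (-1.10 ± 0.11), Snord118 (-1.12 ± 0.21), Snord15a (-0.93 ± 0.17) and Snord22 (-0.90 ± 0.20). Their HSD ICHD7 and HSD values are those given above, and the groups did not overlap in any of them. In all 9 of 60 C/D genes were lower at unadjusted p, where 10.1% of all genes were, and 0 higher, where 9.67% were; at adjusted p, 5 of 60 were lower, where 0.795% of all genes were, and 0 higher, where 2.73% were. The mean was lower in 42 of the 60, where it was lower in 52% of all genes, and 11 were lower with no overlap, where 14.9% of all genes were and 12.3% were higher.

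Of the H/ACA genes in HSD ICHD7 against HSD, 16 of 38 were lower at unadjusted p, where 10.1% of all genes were, 0 were higher, where 9.67% were, and 32 had a lower mean, as did 52% of all genes. Past limma's adjusted threshold, where 0.795% of all genes were lower, were 4: Snora64 (-1.76 ± 0.22), Snora21 (-1.62 ± 0.21), Snora74a (-1.39 ± 0.13) and Snora23 (-0.80 ± 0.15). The count of 4 was 5 by edgeR, 7 by DESeq2 and 11 with limma over all 12 libraries. In the same comparison 7 of the 12 HSPC markers were lower at unadjusted p, where 10.1% of all genes were. Without HSD ICHD7 replicate 3, 7 of 58 C/D and 16 of 36 H/ACA genes were lower at unadjusted p. Of all genes, 2849 of 16922 then passed in either direction, against 3453 of 17490 with all libraries. Snora73a did not pass (0.06 ± 0.20), and its value was -0.21 without HSD ICHD7 replicate 1. The calls of Snord15b, Snord17, Snora21, Snora64 and Snora74a held in all 17 alternatives run. Those of Snord15a and Snora23 held in 12 of 17, that of Snord118 in 11 and that of Snord22 in 10. The C/D count past the adjusted threshold was 2 without HSD replicate 3 or HSD ICHD7 replicate 1, and 3 without HSD replicate 1, HSD replicate 2 or HSD ICHD7 replicate 2.

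In ND ICHD7 against ND, Snord15b was the C/D gene lower past the adjusted threshold (log2 fold change -1.12 ± 0.22, limma adjusted p = 0.00599), and at unadjusted p 9 of 62 C/D genes were lower, where 10.9% of all genes were. Another 3 were higher at unadjusted p, where 14.2% of all genes were: Snord111 (0.65 ± 0.22), Snord11 (0.64 ± 0.23) and Snord35b (0.52 ± 0.22), at 0.723 to 1.54 CPM in the ND ICHD7 libraries and 0.254 to 0.952 CPM in the ND libraries. At adjusted p, 2.69% of all genes were lower and 8.9% higher. The mean was lower in 30 of the 62, where it was lower in 51.7% of all genes, and the groups did not overlap in 9 genes lower and 7 higher, where 15.1% of all genes were lower and 15.4% higher without overlap. Among H/ACA genes 15 of 38 were lower at unadjusted p, where 10.9% of all genes were, 29 had a lower mean, and 7 passed the adjusted threshold, as 2.69% of all genes did: Snora64 (-1.48 ± 0.18, limma adjusted p = 0.000214), Snora15 (-0.84 ± 0.18), Snora70 (-1.05 ± 0.27), Snora69 (-0.86 ± 0.22), Snora31 (-0.74 ± 0.20), Snora74a (-0.62 ± 0.17) and Snora21 (-0.77 ± 0.22). The ND ICHD7 and ND values overlapped in Snora21 and in none of the other 6. Snora64 held in all 17 alternatives. The call held in 14 of 17 for Snora15, 12 of 16 for Snora70 and 10 of 16 each for Snora31 and Snora69. It held in only 9 of 17 for Snora74a and 5 of 17 for Snora21. For Snora21 the adjusted p was 0.0462 by limma, 0.0680 by edgeR and 0.230 by DESeq2. The H/ACA count past the adjusted threshold was 2 without ND replicate 2, 3 without ND replicate 3 or ND ICHD7 replicate 3, and 4 without ND ICHD7 replicate 1. The C/D count was 2 without ND replicate 1, 3 without ND ICHD7 replicate 1 and 4 without ND ICHD7 replicate 2.

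Snora70, Snora69 and Snora31 were low genes. Snora70, in Rpl10, had 2.43, 1.07 and 0.954 CPM in ND ICHD7, against 2.94, 3.94 and 3.43 CPM in ND. Snora69, in Rpl39, had 0.855, 1.43 and 1.39 CPM in ND ICHD7, against 2.31, 3.35 and 2.22 CPM in ND. Snora31, in Tpt1, had 2.50, 1.85 and 3.01 CPM in ND ICHD7, against 3.99, 4.73 and 4.44 CPM in ND. All 3 stand on few reads, but the highest ND ICHD7 library was below the lowest ND library in each.

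Most snoRNAs are processed from the introns of their hosts, so the hosts were set beside them. Of the 72 hosts listed, all were tested, and in the diet comparisons they stayed near the median of all genes. In HSD against ND, 2 were lower and 4 higher at unadjusted p (median log2 fold change 0.02). Of all genes, 3.25% were lower and 3.68% higher there. In HSD ICHD7 against ND ICHD7, 3 hosts were lower and 4 higher (median 0.08), where 9.84% and 5.52% of all genes were. Rps3, a ribosomal protein gene that holds Snord15a and Snord15b, had log2 fold changes of -0.18 ± 0.08 and -0.15 ± 0.12 in these comparisons. Rpl23, the host of Snora21, had -0.02 ± 0.07 and 0.12 ± 0.13, Rps2, the host of Snora64, had -0.14 ± 0.08 and 0.25 ± 0.14, and Snx5, the host of Snord17, had -0.05 ± 0.08 and 0.14 ± 0.10.

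Of the C/D genes lower at unadjusted p whose host was tested, all 5 in HSD against ND and all 4 in HSD ICHD7 against ND ICHD7 had a lower log2 fold change than their host. The same held for 12 of 12 and 11 of 11 H/ACA genes. These snoRNAs were picked for being low, so this is a description with no test. The host itself was lower at unadjusted p for 2 of the 5 and 1 of the 4 C/D genes, and for 1 of the 12 and 3 of the 11 H/ACA genes. Of all genes, 3.25% and 9.84% were lower in these comparisons. A host with several snoRNAs counts once for each. The 2 C/D genes in HSD against ND were Snord15a and Snord15b, which share the host Rps3, so Rps3 was itself lower at unadjusted p there. Member and host log2 fold changes had Spearman correlations of 0.20 (C/D) and 0.24 (H/ACA) in HSD against ND. They were 0.22 and 0.20 in HSD ICHD7 against ND ICHD7, 0.07 and 0.31 in HSD ICHD7 against HSD, and 0.51 and 0.39 in ND ICHD7 against ND. In the last, the host was lower at unadjusted p for 4 of 6 lower C/D and 2 of 14 lower H/ACA genes, where 10.9% of all genes were. The part of the hosts was not tested. Snhg1, the host of Snord22, and Gm28285, the host of Snora74a, were not analysed here.

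**Figure D5:**
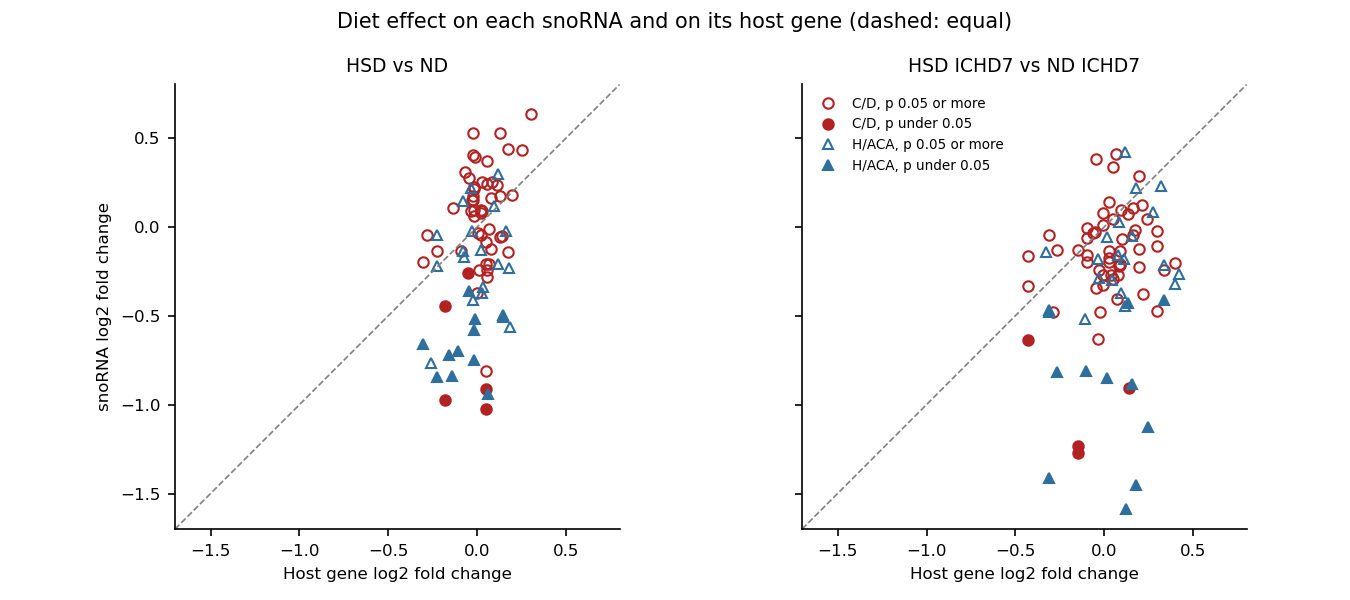
Log2 fold change for the diet of each snoRNA gene (vertical axis) against that of its host gene (horizontal axis), both on the log2(CPM + 0.5) scale, in HSD against ND and in HSD ICHD7 against ND ICHD7. Each point is a snoRNA with a tested host and the dashed line marks equal values. The hosts cluster near 0. The filled points, with unadjusted p under 0.05 for the snoRNA, all lie below 0, and the other snoRNAs lie on both sides of 0.

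The genes for the proteins of the snoRNA particles were set beside the RNAs in the same comparisons. Of the C/D core (Fbl, Nop56, Nop58 and Snu13), 0 of 4 passed at unadjusted p in either diet comparison. Fbl, which encodes fibrillarin, had log2 fold changes of 0.16 ± 0.10 in HSD against ND and 0.34 ± 0.16 in HSD ICHD7 against ND ICHD7. Fbl was lower at unadjusted p in both comparisons with and without ICH (-0.41 ± 0.16 in ND ICHD7 against ND, -0.23 ± 0.10 in HSD ICHD7 against HSD), past no adjusted threshold. Of the H/ACA core (Dkc1, Gar1, Nhp2 and Nop10), Nhp2 was higher at unadjusted p in HSD against ND (0.21 ± 0.09), and 0 of 4 passed in the other 3 comparisons. Of 16 genes of snoRNA assembly and maturation, 0 passed in either diet comparison.

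Among members grouped by role, the 7 C/D genes of rRNA precursor processing all had a lower mean in HSD than in ND, as did 45.1% of all genes, and 4 of them were lower at unadjusted p, as were 3.25% of all genes. In HSD ICHD7 against ND ICHD7, 2 of 6 were lower at unadjusted p, where 9.84% of all genes were. Snord13, another of these, had 1.69, 0.904 and 1.37 CPM in HSD, against 1.33, 2.17 and 1.84 CPM in ND, and its groups overlapped. Of the 3 H/ACA genes of this role (Snora73a, Snora73b and Snora62), 2 were lower at unadjusted p in HSD against ND and 1 in HSD ICHD7 against ND ICHD7, beside the same shares of all genes. The 3 snoRNAs from Gas5 (Snord47, Snord78 and Snord80) and the 4 from Rpl13a did not pass in either diet comparison. Snord67, the guide of U6 spliceosomal RNA that could be tested, did not pass either (0.18 ± 0.34 and -0.23 ± 0.25).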

How the data were processed

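HSPC RNA was sequenced from total RNA with a stranded SMART-Seq kit. Per the study's methods, the authors aligned reads to mm10, counted them per gene with featureCounts and deposited CPM scaled with TMM factors (edgeR 3.24.3); annotation and strand setting were not given in the sources used here. Deposited CPM were whole multiples of the value of 1 read in 100% of values (tolerance 0.01 read), so reads were recovered. The stated filter of CPM over 10 in 3 samples was not applied in the deposited tables, which list 20792 genes.

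Genes averaging at least 10 recovered reads per library compared were tested on log2(CPM + 0.5) with limma 3.58.1 (trend; R 4.3.3), two-sided, with Benjamini-Hochberg adjustment over all genes tested. A fold change on this scale understates the change of low genes. Of the members, 55 C/D and 37 H/ACA genes were tested in all 5 comparisons, and 8 C/D and 1 H/ACA gene in none. Alternatives were RLE or library-total scaling, pseudocounts of 0.1 and 1, other filters, edgeR 4.0.16, DESeq2 1.42.0, a replicate block, 1 fit over 12 libraries and leaving libraries out. Scripts were tested on simulated data. Hosts and sequences came from GENCODE M21 (20511 gene IDs matched). P-values measure only the spread between these libraries. Members and lists were chosen with earlier results of these data known. The genes named were those with adjusted p under 0.05, up to 6 per direction and class with the smallest unadjusted p, the 5 highest per class, and members of the role and host lists. Others named were chosen after their values were seen.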

Additional observations from a re-analysis of the deposited data

How the results depend on the processing

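Over the named snoRNA genes, 1262 of 1396 alternative values kept direction and side of the adjusted threshold, 74 lost a call, 57 gained one and 3 reversed: Snora73a in HSD ICHD7 against HSD (-0.21 without HSD ICHD7 replicate 1), and the difference of the diet effects for Snord15a (0.12 without ND ICHD7 replicate 2) and Snora81 (0.16 without HSD replicate 3). The study's filter of 10 CPM in 3 samples left 17 of the 110 genes. With it the C/D medians were -0.50 in HSD against ND, -1.12 in HSD ICHD7 against ND ICHD7, -0.55 in ND ICHD7 against ND, -1.01 in HSD ICHD7 against HSD and -0.46 for the difference of the diet effects. The H/ACA medians were -0.51, -0.88, -0.36, -0.80 and -0.36 in the same order. At unadjusted p, 5, 5, 4, 5 and 2 of 6 C/D genes were then lower in that order. The H/ACA genes lower were 9, 8, 8, 7 and 4 of 11, and 0 of either class were higher. Of all 10084 genes then tested, 781, 1288, 2114, 2073 and 496 passed in either direction. The C/D median in HSD against ND was -0.043 with a pseudocount of 0.1 and -0.012 with 10 reads in 3 libraries, so its sign was not stable. DESeq2 gave 5 of 62 C/D genes at unadjusted p in ND ICHD7 against ND, where 3630 of all 18330 genes passed. The edgeR C/D median was -0.28 in HSD ICHD7 against HSD. For the difference of the diet effects the H/ACA median was -0.27 by edgeR, -0.26 by DESeq2 and -0.25 without the 2 libraries high in macrophage genes. Without those libraries 6 of 61 C/D genes passed at unadjusted p, as did 825 of all 18320 genes. The cause was not tested.

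Leaving out single libraries gave C/D medians of -0.051 to 0.10 and 7 to 11 C/D genes in HSD against ND, C/D medians of -0.093 to 0.069 in ND ICHD7 against ND, and for the difference of the diet effects C/D medians of -0.34 to -0.15, 2 to 6 C/D genes and H/ACA medians of -0.24 to -0.12. The 3 reversing values ranged from -0.21 to 0.24 for Snora73a, from -0.61 to 0.12 for Snord15a and from -0.49 to 0.16 for Snora81. Over all genes, leaving out single libraries gave 634 to 1461 at unadjusted p in HSD against ND and 748 to 1786 for the difference. Adjusted calls over all genes numbered 12 in HSD against ND (DESeq2 64, 12-library fit 0). They numbered 0 in HSD ICHD7 against ND ICHD7 (107 and 249) and 617 in HSD ICHD7 against HSD (1041 and 1466). Replicate numbers did not pair the libraries: same-numbered libraries of different groups correlated at -0.21 to 0.11 and others at -0.21 to 0.28. With the replicate block 6 of 97 values changed their call. Genes lower at unadjusted p were then 8 C/D in HSD against ND (7 without the block), 12 H/ACA in HSD ICHD7 against ND ICHD7 (14), 11 C/D in ND ICHD7 against ND (9), 10 C/D in HSD ICHD7 against HSD (9) and 3 C/D for the difference of the diet effects (2), with the other counts and all medians equal. Of all genes, 905, 2825, 4455, 3524 and 1057 passed in either direction in the same order, against 1145, 3028, 4601, 3453 and 1153 without the block. Snora73a was lost in HSD against ND (limma adjusted p = 0.109), and C/D adjusted calls in ND ICHD7 against ND were 5 (1 without the block). Low counts limit the short C/D genes, whose median SE was 0.26 in HSD against ND.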

Other observations

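Other short noncoding RNAs were read in the same libraries. Their counts stand against 3.25% of all genes lower and 3.68% higher at unadjusted p in HSD against ND, and 9.84% lower and 5.52% higher in HSD ICHD7 against ND ICHD7. Among 203 further genes annotated as snoRNA under other symbols, 37 of 148 tested were lower and 1 higher at unadjusted p in HSD against ND (median log2 fold change -0.20), and 38 of 158 were lower and 1 higher in HSD ICHD7 against ND ICHD7 (median -0.22). Their summed level was 1542 ± 234 CPM in HSD and 2066 ± 41.3 CPM in ND, and 955 ± 103 CPM in HSD ICHD7 and 1548 ± 134 CPM in ND ICHD7 (SD, n = 3 each). Of the snRNA genes, which include the spliceosomal RNAs, 24 of 74 were lower and 0 higher in HSD against ND, and 15 of 83 lower and 0 higher in HSD ICHD7 against ND ICHD7. Of the scaRNA genes, guides that act in Cajal bodies, 5 of 14 and 7 of 14 were lower.

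Of the miRNA genes, 8 of 219 were lower and 3 higher in HSD against ND (median log2 fold change 0.04), and 15 of 248 lower and 2 higher in HSD ICHD7 against ND ICHD7. Rmrp, the RNA of a ribonuclease that cuts the rRNA precursor, had a log2 fold change of -0.57 ± 0.10 in HSD against ND (limma adjusted p = 0.0983) and -0.20 ± 0.21 in HSD ICHD7 against ND ICHD7, where the groups overlapped. Vaultrc5, a vault RNA, had -0.60 ± 0.10 in HSD against ND and -0.93 ± 0.21 in HSD ICHD7 against ND ICHD7 (limma adjusted p = 0.0718 and 0.251). These 2 were chosen for their small p. Among 14 listed structured small RNAs, 4 of 12 tested were lower in HSD against ND and 5 of 13 in HSD ICHD7 against ND ICHD7, 0 higher. The abundant Rpph1 averaged 19836 ± 9920 CPM in HSD and 13524 ± 1173 CPM in ND, with 31024 CPM in HSD replicate 2. Rn7sk averaged 13036 ± 1081 CPM in HSD and 12639 ± 737 CPM in ND, and both passed no threshold in this comparison. After ICH, Rpph1 averaged 10838 ± 3345 CPM in HSD ICHD7 and 19458 ± 10629 CPM in ND ICHD7, and the groups overlapped. Rn7sk had 8288, 8035 and 9337 CPM in HSD ICHD7, against 11841, 24338 and 13270 CPM in ND ICHD7, with no overlap. The part of RNA recovery or library preparation in these values was not tested.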
